A study of Mus musculus with 4 samples.

Results

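Aged mice after 3 days of cold (aged 3D) were compared with aged mice kept at thermoneutrality (aged TN), in single nuclei of inguinal white adipose tissue (iWAT), a subcutaneous fat depot of the mouse. Nuclei were taken from the hashed aliquots of old mice that carried either of these 2 conditions in their names, and the 2 aliquots of each mouse were summed. With a minimum of 300 genes per nucleus, 4373 of 15277 nuclei and 4 of 12 mice entered the comparison, with 2004 nuclei from 2 aged TN mice and 2369 nuclei from 2 aged 3D mice. All animals were male C57BL/6 mice that first spent 3 weeks at 30 °C, and they were housed singly in the 2 weeks that followed. Aged TN mice then had 2 more weeks at 30 °C, whereas aged 3D mice had 11 more days at 30 °C and then 3 days at 6 °C. Aged mice were 57 weeks old, and 9-week-old young mice at the same 2 temperatures gave the test of whether the response differed with age. Aged mice with 14 days at 6 °C (aged 14D) are given side by side where useful, and share the aged TN controls with the 3D comparison. The hour at which tissue was collected is not given in the sources used here.

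The labels call each gene expression pool a batch, and each pool was a single droplet run that held nuclei of 1 mouse from every group, so aged TN and aged 3D mice with the same number share a pool. Values below are listed as mouse 1 and mouse 2 of each group. Depth differed with the condition: median UMIs per nucleus were 1089 and 1121.5 in aged TN mice and 1555.5 and 1994 in aged 3D mice, and this difference cannot be told apart from the cold. Across the 4 mice, 132 nuclei were called as doublets, 7 carried liver genes, 9 had more than 5% mitochondrial UMIs, and the pools shared 11 barcodes. Each deposited aliquot lists only genes with at least 6 UMIs, so a gene listed at 0 in a mouse may have held up to 10 UMIs there, or more if they lay in a single nucleus, since the study also filtered on the number of nuclei. All 10 adipocyte markers were detected in the adipocyte nuclei of all 4 mice, at summed levels of 11876 and 11614 CPM (UMI counts scaled to a fixed total per mouse and class) in aged TN and 12646 and 13751 CPM in aged 3D mice. In adipocyte nuclei, markers of fibroblasts summed to 395 and 98.8 CPM in TN and 288 and 329 CPM in 3D, with no separation of the groups, and 12 genes of RNA quality and nuclear RNA summed to 67017 and 61351 CPM in TN and 53217 and 60337 CPM in 3D. Skeletal muscle markers, summed over all nuclei, stood at 16.0 and 0 CPM in aged TN and 479 and 409.5 CPM in aged 3D mice. The share of nuclei put in the skeletal muscle class did not follow these sums, and was 1.62% in aged TN mouse 2, where the markers were listed at 0.

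Cold makes sympathetic nerves release norepinephrine in fat, where it drives lipolysis and, in iWAT, the appearance of beige adipocytes that burn fuel through the uncoupling protein Ucp1. Fat cells also run a circadian clock, in which the heterodimer of Clock and Bmal1 (gene symbol Arntl) binds E-boxes and switches on the Per, Cry, Nr1d1, Nr1d2 and Dbp genes. Per and Cry proteins block that heterodimer, while the Rev-erb receptors (Nr1d1, Nr1d2) and the receptor Rora compete for elements in the Arntl promoter, so that Arntl and the Rev-erb genes peak at opposite phases of the day. Dbp, Tef and Hlf are output factors that act at D-boxes, where Nfil3 opposes them.

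In adipocyte nuclei, the clock gene Arntl was the gene with the smallest p, and it rose in both aged 3D mice. RefSeq promoter windows (GRCm38.p6, 250 bases before to 50 bases after a gene start, plus strand) are shown because they hold, or lack, the motifs through which clock proteins are known to act, for Arntl, the repressor Per1 and the output factors Tef and Dbp. Capitals mark a Ror element (TAGGTCA) in the Arntl window and an E-box (CACGTG) in the Per1 and Tef windows, both strands having been searched.
Arntl, chr7:113207261-113207560: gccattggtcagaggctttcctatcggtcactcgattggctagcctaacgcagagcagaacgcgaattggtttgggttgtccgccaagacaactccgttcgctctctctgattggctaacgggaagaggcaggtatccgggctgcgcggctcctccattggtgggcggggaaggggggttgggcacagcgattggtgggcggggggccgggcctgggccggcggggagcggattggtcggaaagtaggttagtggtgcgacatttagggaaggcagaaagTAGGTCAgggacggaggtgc
Per1, chr11:69098699-69098998: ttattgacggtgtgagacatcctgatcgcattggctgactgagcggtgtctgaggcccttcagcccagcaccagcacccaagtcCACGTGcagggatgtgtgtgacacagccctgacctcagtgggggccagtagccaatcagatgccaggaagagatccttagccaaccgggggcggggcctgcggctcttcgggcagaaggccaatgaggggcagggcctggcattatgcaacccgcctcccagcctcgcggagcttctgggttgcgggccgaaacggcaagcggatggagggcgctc
Tef, chr15:81802423-81802722: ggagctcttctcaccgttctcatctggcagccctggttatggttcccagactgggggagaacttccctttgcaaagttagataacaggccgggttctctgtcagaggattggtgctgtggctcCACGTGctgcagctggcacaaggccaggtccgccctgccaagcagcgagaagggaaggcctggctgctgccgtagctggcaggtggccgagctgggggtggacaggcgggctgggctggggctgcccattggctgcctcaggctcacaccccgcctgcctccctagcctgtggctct
Dbp, chr7:45704997-45705296: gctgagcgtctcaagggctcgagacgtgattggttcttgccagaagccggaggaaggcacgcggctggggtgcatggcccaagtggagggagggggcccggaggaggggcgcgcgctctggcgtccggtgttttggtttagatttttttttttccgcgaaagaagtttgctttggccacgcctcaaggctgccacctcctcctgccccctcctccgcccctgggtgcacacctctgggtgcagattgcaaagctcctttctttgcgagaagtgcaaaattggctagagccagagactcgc
The Dbp window held neither motif, and no match was found there for the D-box TTANGTAA. Of the 18 clock genes looked up, 16 matched a RefSeq entry, with 21 promoter windows. The Ror element was found in 2 of the 21 windows, of Arntl and Nfil3, against 2.61% of all 32851 promoter windows, and in Arntl its first base lay 30 bases after the gene start. The E-box was found in 6 of the 21 windows, of 5 genes (Bhlhe41, Ciart, Cry1, Per1 and Tef), against 7.15% of all promoter windows. The other window of Arntl (chr7:113207215-113207514) and the other window of Per1 (chr11:69099902-69100201) held none of these motifs, and both windows of Tef held an E-box.

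Arntl (GRCm38 chromosome 7, 113207465 to 113314126, plus strand) stood at 4.69 and 4.35 CPM in aged TN mice and 57.8 and 71.4 CPM in aged 3D mice, from 5, 3, 85 and 156 UMIs. Both cold mice were above both TN mice, with a log2 fold change of 3.77 ± 0.38 (SE, n = 2 mice a group, adjusted p = 0.00968 by edgeR's quasi-likelihood test with Benjamini-Hochberg adjustment over 10612 genes). All adjusted p-values below come from this quasi-likelihood test within a nuclei class unless another tool is named. In these nuclei 27 of 10612 genes passed, 0.254% of those tested (0.0942% higher and 0.16% lower). The partner of Arntl, Clock, stood at 127 and 120.3 CPM in aged TN mice and 239 and 165 CPM in aged 3D mice and did not pass (adjusted p = 0.228). Rora stood at 2211 and 2487 CPM in TN against 2310 and 1884 CPM in 3D, with the groups overlapping, and did not pass. Of the 4 activators described here 3 were tested (Npas2 was not), and 1 passed, as higher.

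Among output factors, Dbp (chromosome 7, 45705088 to 45710203, plus strand) fell, from 80.7 and 68.1 CPM in aged TN mice to 21.8 and 23.3 CPM in aged 3D mice (86, 47, 32 and 51 UMIs). The groups did not overlap, and the log2 fold change was -1.71 ± 0.28 (adjusted p = 0.0436 by edgeR). That call was kept under 7 of 16 alternatives, with log2 fold changes from -1.82 to -1.24 over all of them. Among the losses were the fits without any single one of the 4 mice and with thinned nuclei (adjusted p = 0.252). Tef stood at 503 and 475 CPM in aged TN mice and 249 and 285 CPM in aged 3D mice (adjusted p = 0.142), and Hlf at 102 and 78.3 CPM in TN against 61.9 and 65.0 CPM in 3D. Nfil3, the factor that opposes them, was listed at 0 in both aged TN mice and at 14.96 and 14.2 CPM in aged 3D mice, from 22 and 31 UMIs (adjusted p = 0.128). Its log2 fold change of 7.67 went as low as 0.75 under the alternatives, since the TN mice may have held unlisted UMIs. Of these 4 factors 1 passed, as lower. By listed counts 3 were lower and 1 (Nfil3) higher in both cold mice than in both TN mice. Over all genes tested 18.8% were lower and 22.9% higher in this way.

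No repressor passed alone, and most of the 10 had lower values in the cold mice. Nr1d1, a Rev-erb receptor, stood at 83.5 and 55.1 CPM in aged TN mice and 21.8 and 27.4 CPM in aged 3D mice (log2 fold change -1.42 ± 0.40, adjusted p = 0.160). The other Rev-erb gene, Nr1d2, stood at 206 and 239 CPM in TN against 135 and 111 CPM in 3D (adjusted p = 0.115), so that for both Rev-erb genes each cold mouse was under each TN mouse. Bhlhe40, a repressor at E-boxes, stood at 67.6 and 36.2 CPM in TN against 21.1 and 9.61 CPM in 3D, and its relative Bhlhe41 at 36.6 and 11.6 CPM in TN against 14.3 and 17.4 CPM in 3D, with overlap for the latter alone of this pair. Per1 stood at 86.3 and 89.9 CPM in TN against 40.1 and 60.4 CPM in 3D, Per3 at 489.9 and 659 CPM in TN against 394 and 479 CPM in 3D and Per2 at 85.4 and 119 CPM in TN against 91.8 and 88.8 CPM in 3D. Cry1 overlapped between the groups, at 11.3 and 11.6 CPM in TN against 20.4 and 9.61 CPM in 3D, and Cry2 was lower in both cold mice by a small margin, at 133.3 and 139.1 CPM in TN against 132.6 and 129.9 CPM in 3D (adjusted p = 0.960). Ciart stood at 16.9 and 0 CPM in TN against 4.76 and 5.49 CPM in 3D. All 10 repressors were tested and 0 passed with edgeR, 4 were lower with an unadjusted p under 0.05 (595 of 10612 over all genes tested), and 1 was called lower by DESeq2. Their median log2 fold change was -0.78 in aged mice, where that of all genes tested was 0.048, beside -0.02 for the same genes in young mice. Of the 10, 6 were lower in both cold mice than in both TN mice, where 18.8% of all genes tested were.

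**Figure D1:**
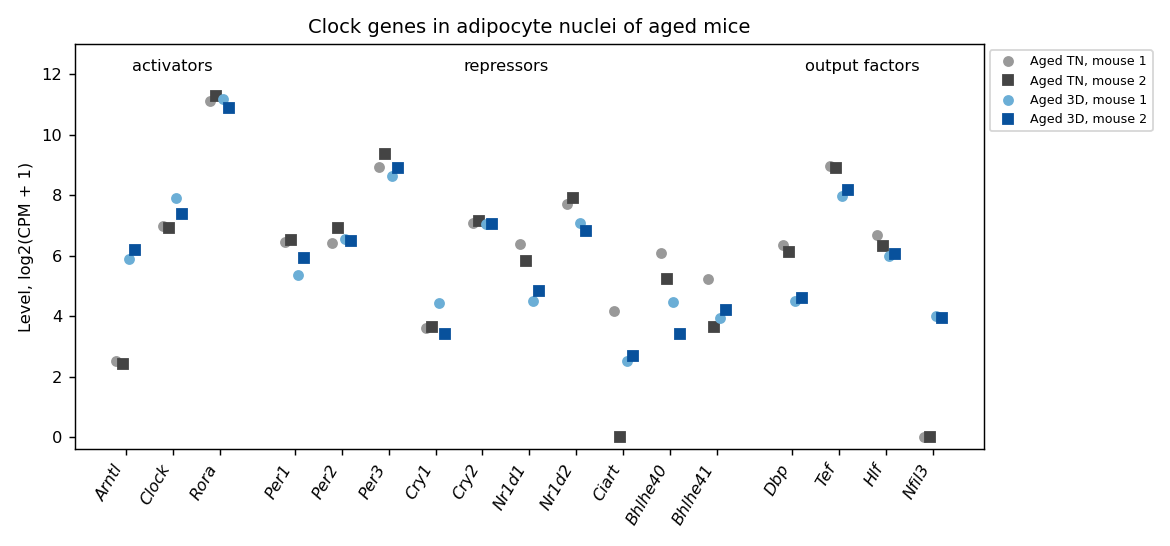
Level of each clock gene tested in adipocyte nuclei, as log2(CPM + 1), in the 2 aged TN mice (grey) and the 2 aged 3D mice (blue), with 1 point per mouse and circles and squares for mice 1 and 2. Arntl and Nfil3 sit higher in both 3D mice, and Dbp, Tef, Nr1d1 and Nr1d2 lower.

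The young mice showed no such values for Arntl and Dbp, although the difference between ages did not pass. Arntl stood at 9.58 and 5.00 CPM in young TN mice and 7.51 and 11.7 CPM in young 3D mice (log2 fold change 0.23), and the difference between the aged and young responses was 3.55 ± 0.69 on the log2 scale (unadjusted p = 3.32e-04, adjusted p = 0.210 by edgeR). Dbp stood at 84.9 and 47.5 CPM in young TN mice and 64.5 and 67.3 CPM in young 3D mice (log2 fold change -0.054), with a difference between ages of -1.66 (adjusted p = 0.391). In aged mice after 14 days of cold, Arntl stood at 6.05 and 9.15 CPM and Dbp at 53.1 and 74.3 CPM. Those values lie near the aged TN mice for both genes, and the 14-day mice were not set against the 3-day mice by a test.

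The Arntl difference was also seen as a share of nuclei at 1 depth. After each adipocyte nucleus was thinned to 800 UMIs, 2 of 517 and 1 of 338 nuclei of aged TN mice held an Arntl UMI, or 0.387% and 0.296%. In aged 3D mice 21 of 484 and 24 of 470 did, or 4.34% (95% exact binomial interval 2.71 to 6.56%) and 5.11% (3.30 to 7.50%), and the intervals of the TN mice ended at 1.39% and 1.64%. The intervals cover counting error only, and thinning left out 63, 36, 51 and 7 nuclei of the 4 mice as too shallow. Unthinned, the shares were 0.862% and 0.535% in TN against 12.9% and 25.4% in 3D. Dbp was found in 5.42% and 5.92% of thinned TN nuclei and in 2.48% and 2.34% of thinned 3D nuclei. Fibroblast nuclei, thinned alike, held Arntl in 4.12% and 2.50% (TN) and in 2.22% and 1.47% (3D). Immune nuclei held it in 1.41% and 8.33% (TN) and in 5.80% and 3.76% (3D). In neither of these classes were both cold mice above both TN mice.

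**Figure D2:**
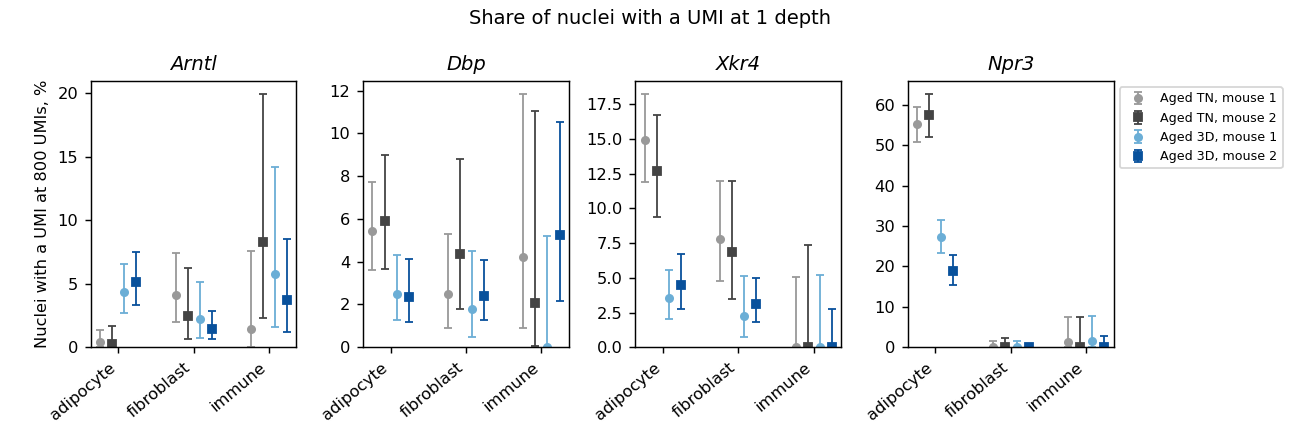
Percent of nuclei with at least 1 UMI of Arntl, Dbp, Xkr4 or Npr3 after thinning to 800 UMIs, by nuclei class and mouse, with 95% exact binomial intervals that cover counting error. In adipocyte nuclei Arntl lies at 4.34% and 5.11% in the 3D mice and at 0.387% and 0.296% in the TN mice, and Npr3 is at or near 0 in the other 2 classes.

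Arntl was not tested in endothelial nuclei and did not pass in the other classes. It stood at 44.8 and 22.8 CPM in aged TN mice and 27.0 and 30.2 CPM in aged 3D mice in fibroblast nuclei (adjusted p = 0.952), where it overlapped between groups. In immune nuclei it stood at 39.2 and 50.3 CPM in TN against 98.8 and 131 CPM in 3D, from 4, 4, 12 and 29 UMIs (adjusted p = 0.700). Over all nuclei it stood at 16.9 and 11.5 CPM in TN against 56.1 and 57.9 CPM in 3D (log2 fold change 1.95 ± 0.36, adjusted p = 0.145). Across the 12 mice, the genes of adipocyte nuclei whose levels followed Arntl most closely were H4c8 (Pearson r = 0.917), Cbs (0.878), Pls3 (0.876), Tank (0.867) and Retn (0.848), a description over mice that share pools and differ in depth. H4c8 and Cbs were listed at 0 in both aged TN mice and stood between 6.12 and 7.78 CPM in aged 3D mice, which is less than 10 unlisted UMIs would give in either TN mouse. In adipocyte nuclei the Arntl call held within clusters 2 and 8 alone (log2 fold change 3.73, adjusted p = 0.0346) and with 5 UMIs placed in each aliquot that did not list the gene (3.37, adjusted p = 0.00774), both settings chosen after seeing the data. It was lost without aged TN mouse 2 (adjusted p = 0.107), without aged 3D mouse 2 (0.0616) with 1 aliquot per mouse (0.159) and when the 4 mice were fitted alone (0.293), while the fold change stayed between 3.37 and 4.23.

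Other genes also rose in adipocyte nuclei. Csad, an enzyme of taurine synthesis, stood at 196 and 175 CPM in aged TN mice and 448 and 403 CPM in aged 3D mice (log2 fold change 1.19 ± 0.17, adjusted p = 0.0205). Slc36a2, an amino acid transporter of adipocytes, stood at 146 and 117 CPM in aged TN mice and 323 and 393 CPM in aged 3D mice (log2 fold change 1.45 ± 0.24, adjusted p = 0.0436). For both, each cold mouse was above each TN mouse. Adam12, a metalloprotease, stood at 92.0 and 183 CPM in aged TN mice and 418 and 638 CPM in aged 3D mice (log2 fold change 1.98 ± 0.29, adjusted p = 0.0205), and Efr3a, which anchors a lipid kinase at the plasma membrane, at 70.4 and 84.1 CPM in TN against 137 and 164 CPM in 3D (log2 fold change 0.96 ± 0.16, adjusted p = 0.0463). Gm16163 and Sox5os4 are gene models without a known role, and Gm16163 stood at 144 and 110.1 CPM in TN against 389.7 and 308 CPM in 3D, and Sox5os4 at 4.69 and 10.1 CPM in TN against 19.0 and 59.5 CPM in 3D, from 5, 7, 28 and 130 UMIs. Adcy10, the soluble adenylyl cyclase, Tspan15, a tetraspanin, and Mir670hg were listed at 0 in both aged TN mice. Their 3D levels were 11.6 and 16.5 CPM for Adcy10, 14.96 and 15.1 CPM for Tspan15 and 11.6 and 21.0 CPM for Mir670hg. Had every TN aliquot without a listing held 5 UMIs, the folds would be 1.17, 1.27 and 1.36.

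In adipocyte nuclei 17 genes fell and 10 rose, while without aged 3D mouse 1 the counts were 52 and 52, and 595 genes were lower and 786 higher with an unadjusted p under 0.05. Flna, the actin cross-linker filamin A, fell from 130.4 and 157 CPM to 25.8 and 19.2 CPM (log2 fold change -2.69 ± 0.42, adjusted p = 0.0317). Ahnak, a large scaffold protein, stood at 934 and 962 CPM in TN against 375 and 238 CPM in 3D, Tns2, a tensin of focal adhesions, at 184 and 141 CPM in TN against 49.7 and 43.0 CPM in 3D, and Podn, a small leucine-rich proteoglycan, at 415 and 467 CPM in TN against 172 and 126 CPM in 3D, each with an adjusted p of 0.0131. Celsr2, a cadherin of the flamingo type, stood at 61.0 and 58.0 CPM in aged TN mice and 17.0 and 9.15 CPM in aged 3D mice (log2 fold change -2.22 ± 0.26, adjusted p = 0.00968). Every one of these genes was lower in both cold mice than in both TN mice. Carmn, a long noncoding RNA known from smooth muscle, stood at 363 and 338 CPM in TN against 111 and 125 CPM in 3D (log2 fold change -1.58 ± 0.17, adjusted p = 0.00968). The 6 markers of smooth muscle and pericytes summed to 55.2 and 27.2 CPM in TN and 24.4 and 26.7 CPM in 3D in these nuclei, and their part in the Carmn difference was not tested. The deubiquitinases Usp35 and Mindy4 stood at 157 and 130.4 CPM in TN against 68.7 and 46.7 CPM in 3D and at 59.1 and 59.4 CPM in TN against 17.7 and 14.2 CPM in 3D. In both genes the cold mice were under the TN mice. Adap1, an Arf GTPase activator, stood at 86.3 and 72.5 CPM in TN against 12.2 and 17.8 CPM in 3D, Mturn at 104 and 72.5 CPM in TN against 29.2 and 25.2 CPM in 3D, Gm20125 at 74.1 and 69.6 CPM in TN against 15.6 and 21.5 CPM in 3D, Zfp697 at 148 and 112 CPM in TN against 57.8 and 40.3 CPM in 3D and Ccdc9b at 37.5 and 73.9 CPM in TN against 12.9 and 15.6 CPM in 3D, all with the groups apart. Their adjusted p-values lay between 0.00968 and 0.0436.

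Xkr4 (chromosome 1, 3205901 to 3671498, minus strand), of the XK-related family of membrane proteins, fell in adipocyte nuclei, in fibroblast nuclei and over all nuclei. In adipocyte nuclei it stood at 222 and 199 CPM in aged TN mice and 52.4 and 62.2 CPM in aged 3D mice (log2 fold change -1.87 ± 0.24, adjusted p = 0.0131). In fibroblast nuclei it stood at 108 and 129 CPM in TN against 32.4 and 48.9 CPM in 3D (log2 fold change -1.51 ± 0.31, adjusted p = 0.0300). Over all nuclei it was the single gene of 12521 that passed, or 0.00799%, at 172 and 155 CPM in TN against 46.3 and 50.8 CPM in 3D (log2 fold change -1.76 ± 0.16, adjusted p = 0.0141), where 1367 genes lay under 0.05 before adjustment and 227 were called by DESeq2. The levels of the young mice were low in adipocyte nuclei, with 12.3 and 2.50 CPM in young TN mice and 9.39 and 8.42 CPM in young 3D mice, and those of aged 14D mice were 42.3 and 46.9 CPM. Over all nuclei the log2 fold change was 0.41 in young mice, and the difference between ages of -2.17 had an unadjusted p of 1.13e-05 and an adjusted p of 0.141. Thinned to 800 UMIs, 14.9% and 12.7% of TN adipocyte nuclei held an Xkr4 UMI against 3.51% and 4.47% of 3D nuclei, and 0 immune nuclei did in any of the 4 mice. In adipocyte nuclei the Xkr4 call was kept under 9 of 16 alternatives. Among the losses were clusters 2 and 8 alone (log2 fold change -1.19, adjusted p = 0.282) and the fits without aged TN mouse 1, aged TN mouse 2 or aged 3D mouse 2. Over all nuclei 9 of 15 alternatives kept the call, and it was lost without any single one of the 4 mice.

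**Figure D3:**
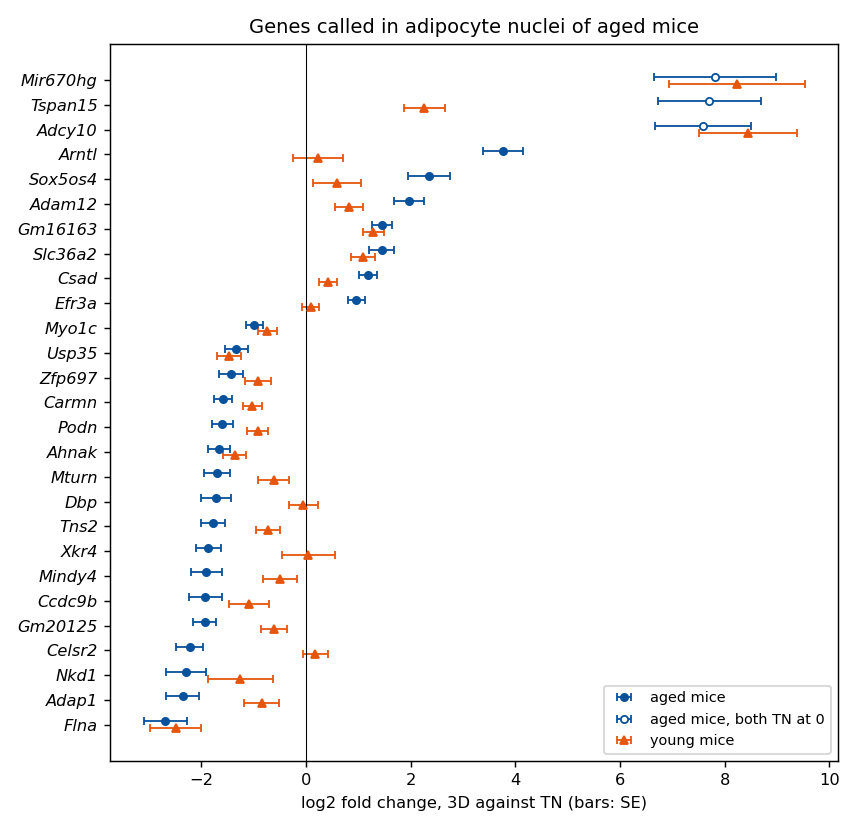
log2 fold change of 3D against TN for the 27 genes that passed in adipocyte nuclei of aged mice (blue, open where both aged TN mice were listed at 0) and for the same genes in young mice (orange), with bars that give the SE. Flna, Ahnak and Slc36a2 lie on the same side in both ages, and Arntl, Dbp, Xkr4 and Celsr2 lie near 0 in young mice.

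The young mice gave fold changes of the same sign for most of these genes, without a difference between ages that passed. Flna had a log2 fold change of -2.49 in young mice, Ahnak of -1.36 and Slc36a2 of 1.09. Celsr2, by contrast, had 0.18 in young mice, and its difference between ages had an unadjusted p of 3.19e-05 and an adjusted p of 0.123. The test of the difference called 0 of 10612 genes in adipocyte nuclei by edgeR (690 at an unadjusted p under 0.05) and 10 by DESeq2, and 0 of 12521 over all nuclei by edgeR (703 unadjusted) and 36 by DESeq2. In aged mice after 14 days of cold, which share the TN mice, Flna stood at 9.07 and 18.9 CPM, Ahnak at 250.2 and 239.5 CPM and Slc36a2 at 521 and 382 CPM.

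Median UMIs per adipocyte nucleus were 1550.5 and 1596 in aged TN mice and 2182 and 4357 in aged 3D mice, and with nuclei thinned to 800 UMIs 29 genes passed, 12 of the 27 among them. The number of genes called rested on single mice. It was 28 without aged TN mouse 1 (10 of the 27 among them), 0 without aged TN mouse 2, 104 without aged 3D mouse 1 (21 of the 27) and 0 without aged 3D mouse 2. DESeq2 called 160 genes, all 27 of edgeR among them. The make-up of the class moved with the condition. Of adipocyte nuclei, cluster 1 held 4.14% and 4.01% in aged TN mice and 22.8% and 59.3% in aged 3D mice, cluster 4 held 0%, 0%, 0.374% and 13.8%, and cluster 2 held 59.1%, 59.1%, 36.8% and 5.66%. Clusters 2 and 8 together, which hold most TN adipocyte nuclei, held 90.3% and 94.7% of the class in TN and 71.2% and 17.6% in 3D. Within those 2 clusters alone 16 genes passed, 6 of the 27 among them, of which 24 could be tested there. These clusters were formed from the same nuclei and genes, so their shares are descriptions, and cold mouse 2 differed from TN more than cold mouse 1 in clusters 1, 2 and 4.

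Of the genes known from white adipocytes, a list drawn up with the study's results on these samples known, a single gene rose and a single gene fell. All 14 listed genes were tested, 1 was higher (Adam12) and 1 was lower (Xkr4), the median log2 fold change was -0.28, and DESeq2 called 2 higher and 5 lower. Over all 10612 genes tested edgeR called 0.0942% higher and 0.16% lower, and DESeq2 called 73 higher and 87 lower. Of the 14 genes 2 were higher and 5 lower at an unadjusted p under 0.05, and 3 were higher and 6 lower in both cold mice than in both TN mice, against 22.9% and 18.8% of all genes. Npr3, the clearance receptor that removes natriuretic peptides, stood at 1461 and 1735 CPM in aged TN mice and 580.2 and 436 CPM in aged 3D mice (log2 fold change -1.67 ± 0.29, adjusted p = 0.0563 by edgeR), just short of the threshold. Its DESeq2 adjusted p was 9.52e-05, and with nuclei thinned to 800 UMIs, an alternative chosen after seeing the data, the edgeR adjusted p was 0.0249. Thinned, 55.1% and 57.4% of TN adipocyte nuclei held an Npr3 UMI against 27.3% and 18.9% of 3D nuclei, and 0 fibroblast nuclei did. Within clusters 2 and 8 the log2 fold change was -0.58 (adjusted p = 0.897). Nnat, an imprinted proteolipid, stood at 3281 and 4469 CPM in aged TN mice and 1617 and 720.1 CPM in aged 3D mice (log2 fold change -1.73, adjusted p = 0.0909). Tshr, the thyrotropin receptor, stood at 1224 and 1130 CPM in TN against 1613 and 1163 CPM in 3D, and Prr16 at 699 and 596 CPM in TN against 611 and 511 CPM in 3D, and neither passed. In young mice the log2 fold change was -1.58 for Npr3 and -1.23 for Nnat.

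De novo lipogenesis turns glucose carbon into fatty acids, and most of its genes were higher in cold mouse 2 while mouse 1 stayed near its TN partner. Of 21 listed genes 20 were tested (Fads2 was not) and 0 passed with edgeR, although 12 were higher with an unadjusted p under 0.05 (786 of 10612 over all genes tested), and 2 were called higher by DESeq2. The median log2 fold change was 1.24, beside 0.048 over all genes tested and 0.71 for the list in young mice. Acaca, the acetyl-CoA carboxylase of lipogenesis, stood at 687 and 735 CPM in aged TN mice and 677 and 5164 CPM in aged 3D mice (adjusted p = 0.246). Acacb, its mitochondrial relative, stood at 267 and 500.0 CPM in TN against 354 and 1694 CPM in 3D (adjusted p = 0.278), and Me1, malic enzyme, which makes NADPH, at 189.6 and 209 CPM in TN against 263 and 1852 CPM in 3D (adjusted p = 0.219). In all 3 genes it was cold mouse 2 that stood far above the rest. Pnpla3, a lipid droplet protein, stood at 398 and 89.9 CPM in TN against 759.7 and 1442 CPM in 3D (adjusted p = 0.114), with both cold mice above both TN mice. Within pool 1 the median log2 ratio of 3D over TN was 0.158, with 1 of 20 genes above 1, and within pool 2 it was 2.43, with 15 of 20 genes above 1. Of the 20 genes, 12 were higher and 1 lower in both cold mice than in both TN mice, where 22.9% of all genes tested were higher and 18.8% lower. After 14 days of cold Me1 stood at 368 and 1291 CPM in aged mice.

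**Figure D4:**
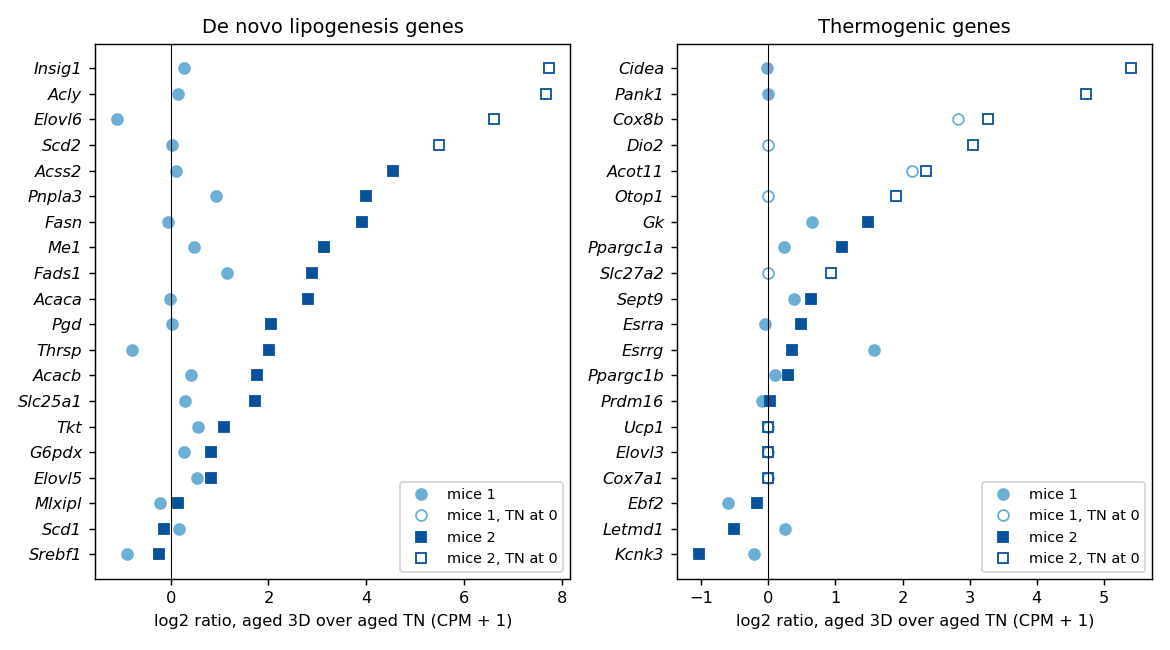
log2 ratio of aged 3D over aged TN in adipocyte nuclei, with 1 CPM added, for the 20 lipogenic and the 20 thermogenic genes tested, within pool 1 (circles) and pool 2 (squares), open where the TN mouse was listed at 0. The median lipogenic ratio is 0.158 in pool 1 and 2.43 in pool 2, and the thermogenic medians are 0 and 0.560, where 6 genes in pool 1 and 3 in pool 2 were listed at 0 in both mice. Over the 14 and 17 genes with UMIs the thermogenic medians are 0.173 and 0.937.

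No gene of the thermogenic list passed in adipocyte nuclei at 3 days in aged mice. Ucp1 was listed at 0 in all 4 mice, where an aliquot without a listing may have held up to 5 UMIs. Of 21 listed genes 20 were tested (Cpt1b was not), of which Ucp1, Cox7a1 and Elovl3 were listed at 0 in all 4 mice and could not pass, and 0 passed with edgeR or DESeq2, with 5 higher at an unadjusted p under 0.05, as were 786 of 10612 over all genes. Over all nuclei 0 of 20 passed with edgeR, with 6 higher at that level (905 of 12521 over all genes), and DESeq2 called 2 higher (153 over all genes), Acot11 and Cox8b, both listed at 0 in the aged TN mice. The median log2 fold change was 0.61 in aged mice, or 0.93 over the 17 genes with UMIs in them, beside 3.06 for all 20 in young mice, a difference that was not tested for the list. Ppargc1a, a coactivator of mitochondrial genes, stood at 99.5 and 81.2 CPM in aged TN mice and 118 and 175 CPM in aged 3D mice (log2 fold change 0.63, adjusted p = 0.411). Its log2 fold change in young mice was 1.83, and the difference between ages had an unadjusted p of 0.0184 and an adjusted p of 0.672. Ppargc1b, its relative, stood at 288 and 209 CPM in TN against 310.2 and 256 CPM in 3D. The beige transcription factors Prdm16 and Ebf2 stood at 266 and 409 CPM in TN against 249.6 and 418 CPM in 3D and at 697 and 655 CPM in TN against 461 and 582 CPM in 3D, with the Prdm16 groups overlapping. Of the 20 genes, 6 were higher and 2 lower in both cold mice than in both TN mice, against 22.9% and 18.8% of all genes tested. The log2 ratio of 3D over TN was above 0 for 8 genes in pool 1 and 14 in pool 2. Cidea had ratios of -0.0155 and 5.40, Cox8b of 2.83 and 3.28 and Kcnk3 of -0.209 and -1.03. Cox8b was listed at 0 in both TN mice and Cidea in TN mouse 2. The 9 beige adipocyte markers summed to 461 and 584 CPM in TN and 589 and 770 CPM in 3D.

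Other metabolic lists held no gene that passed in adipocyte nuclei. Of 22 genes of fatty acid uptake and oxidation tested, 6 were higher and 0 lower at an unadjusted p under 0.05, with a median log2 fold change of 0.55 and 10 higher in both cold mice. Over all 10612 genes tested 786 were higher and 595 lower at that unadjusted level, the median was 0.048, and 22.9% were higher in both cold mice. Acsl1, which activates long-chain fatty acids, stood at 2165 and 2677 CPM in TN against 2593 and 3785 CPM in 3D, and Fabp4, a fatty acid carrier, at 1441 and 2774 CPM in TN against 1625 and 4230 CPM in 3D. Of 11 lipolysis genes 4 were higher and 0 lower unadjusted (median 0.11), and Plin4, a lipid droplet coat protein, stood at 1426 and 1648 CPM in TN against 1285 and 926 CPM in 3D. Of 21 adrenergic and cAMP genes 2 were higher unadjusted (median -0.07). Triglyceride synthesis had 0 of 12 genes at an unadjusted p under 0.05 (median 0.05), and glucose and insulin genes had 1 of 12, lower (median 0.004). Of 24 matrix genes 2 were higher and 3 lower unadjusted (median 0.06), and of 12 glucocorticoid targets 2 were higher and 1 lower (median -0.06).

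In fibroblast nuclei, which take in the adipocyte progenitors, 41 of 7787 genes passed (0.527%), 26 higher (0.334%) and 15 lower (0.193%), and 0 passed when the pool was not in the fit. The make-up of this class differed between mice, a description since the clusters were formed from the same nuclei. Cluster 0, with Dcn and Pdgfra among its leading genes, held 40.7% and 52.4% of fibroblast nuclei in aged TN mice and 47.0% and 67.2% in aged 3D mice, cluster 3, with Pi16 and Dpp4 among its own, held 47.0% and 33.0% against 32.1% and 18.1%, and cluster 7 held 12.3% and 14.7% against 20.95% and 14.7%. The part of this in the fibroblast calls, Dcn included, was not tested. Gpnmb, a membrane glycoprotein also known from lipid-laden macrophages, stood at 132 and 118 CPM in aged TN mice and 305 and 351 CPM in aged 3D mice (log2 fold change 1.37 ± 0.21, adjusted p = 0.00497). Dcn, decorin, a proteoglycan of collagen matrix, stood at 1288 and 1043 CPM in TN against 1932 and 2368 CPM in 3D (log2 fold change 0.90 ± 0.17, adjusted p = 0.0274). Nox4, an NADPH oxidase, stood at 401 and 327 CPM in TN against 648 and 828 CPM in 3D, and Lifr, the receptor of leukemia inhibitory factor, at 47.2 and 49.5 CPM in TN against 111 and 203 CPM in 3D. In all of these each cold mouse was above each TN mouse. Tsc22d3, the glucocorticoid-induced leucine zipper, stood at 2.36 and 19.0 CPM in TN against 24.3 and 86.3 CPM in 3D, from 1, 5, 9 and 83 UMIs (log2 fold change 2.45 ± 0.50, adjusted p = 0.0300). Hspa5, a chaperone of the endoplasmic reticulum, stood at 28.3 and 30.5 CPM in TN against 91.7 and 92.6 CPM in 3D, from 12, 8, 34 and 89 UMIs (log2 fold change 1.59 ± 0.33, adjusted p = 0.0314). Cst3, cystatin C, stood at 16.5 and 22.8 CPM in TN against 59.4 and 106 CPM in 3D (7, 6, 22 and 102 UMIs), Galnt15 at 146 and 152 CPM in TN against 356 and 404 CPM in 3D and Sparcl1 at 77.8 and 118 CPM in TN against 154 and 362 CPM in 3D. Satb1, a chromatin organizer, stood at 16.5 and 3.81 CPM in TN against 67.4 and 55.1 CPM in 3D (7, 1, 25 and 53 UMIs), Ypel2 at 63.7 and 72.3 CPM in TN against 173 and 157 CPM in 3D and Fam13a at 7.08 and 11.4 CPM in TN against 18.9 and 155 CPM in 3D (3, 3, 7 and 149 UMIs), the last with most of its rise in cold mouse 2. Mrvi1, Fbln7 and 4930438E09Rik were listed at 0 in both TN mice, and 4833422C13Rik stood at 0 and 30.5 CPM in TN against 56.7 and 106 CPM in 3D. Fbln7, a fibulin, reached 43.2 and 49.9 CPM in 3D, and with 5 UMIs in each TN aliquot that did not list it the fold would be 1.496. The same bound was 0.942 for Mrvi1 and 1.01 for 4930438E09Rik.

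Among the fibroblast genes that fell, Sult1e1, the estrogen sulfotransferase, stood at 333 and 168 CPM in aged TN mice and 89.0 and 48.9 CPM in aged 3D mice (log2 fold change -1.82 ± 0.27, adjusted p = 0.00497). Smpd3, a neutral sphingomyelinase, stood at 366 and 369 CPM in TN against 148 and 133 CPM in 3D (log2 fold change -1.36 ± 0.20, adjusted p = 0.00497), and Vcan, the matrix proteoglycan versican, at 269 and 236 CPM in TN against 127 and 95.7 CPM in 3D (log2 fold change -1.21 ± 0.20, adjusted p = 0.0155). These 3 genes were lower in both cold mice than in both TN mice. Tmtc2 stood at 75.5 and 103 CPM in TN against 35.1 and 18.7 CPM in 3D, Lrrtm3 at 127 and 175 CPM in TN against 37.8 and 74.9 CPM in 3D, Enah, an actin regulator, at 94.3 and 129 CPM in TN against 54.0 and 38.5 CPM in 3D, and Gm46323 at 77.8 and 57.1 CPM in TN against 18.9 and 20.8 CPM in 3D. Ccser1 stood at 229 and 221 CPM in TN against 116 and 118 CPM in 3D, Arhgef28 at 264 and 255 CPM in TN against 156 and 114 CPM in 3D, Rnf165 at 84.9 and 76.1 CPM in TN against 29.7 and 29.1 CPM in 3D, and Sdk1, an adhesion molecule, at 1660 and 1397 CPM in TN against 1079 and 710.4 CPM in 3D. In these genes too the groups were apart. For Camk1d, Bmp6 and Gm42418 the groups overlapped although the paired fit called them: Bmp6, a bone morphogenetic protein, stood at 255 and 68.5 CPM in TN against 89.0 and 37.4 CPM in 3D, and Gm42418, a nuclear RNA that overlaps ribosomal RNA sequence, at 14287 and 7820 CPM in TN against 9964 and 3445 CPM in 3D. Camk1d stood at 1307 and 845 CPM in TN against 931 and 422 CPM in 3D. Of the 27 genes called in adipocyte nuclei and the 41 called in fibroblast nuclei, Xkr4 was the one in both. In young mice Gpnmb stood at 65.0 and 82.3 CPM in TN and 82.5 and 84.6 CPM in 3D, and the difference of its response between ages had an adjusted p of 0.800.

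**Figure D5:**
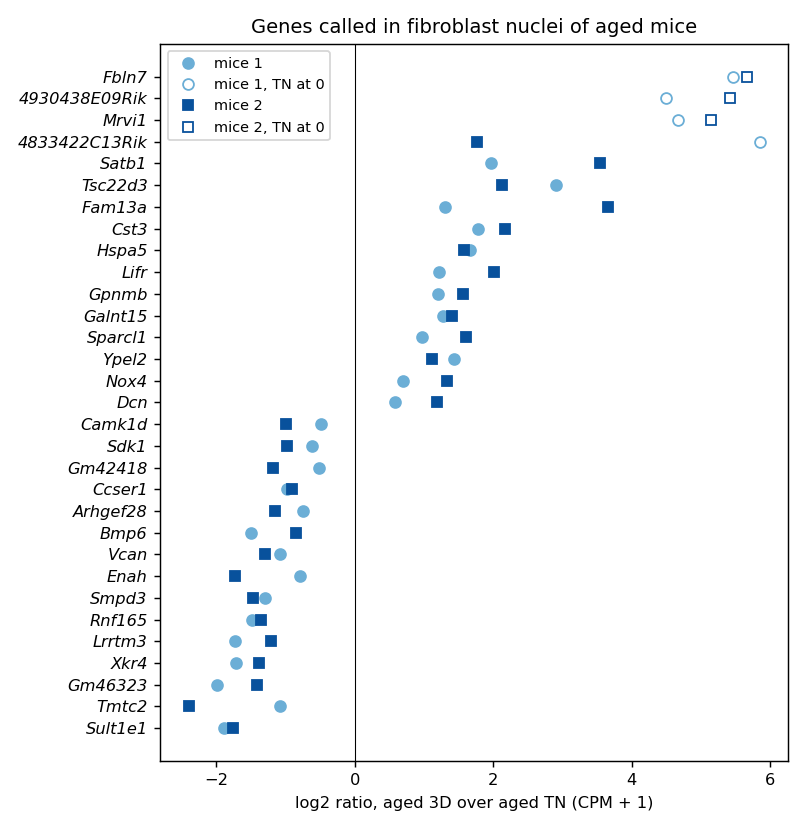
log2 ratio of aged 3D over aged TN in fibroblast nuclei, with 1 CPM added, within pool 1 (circles) and pool 2 (squares), for 31 of the 41 genes that passed, open where the TN mouse was listed at 0. In both pools 16 of the 31 genes lie above 0 and 15 below, and the naming rule took only genes with 1 sign in both pools.

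Of the lists, extracellular matrix had 25 of 26 genes tested in fibroblast nuclei, with 1 higher (Dcn) and a median log2 fold change of 0.09, beside 0.001 over all genes tested, of which 0.334% were called higher and 0.193% lower. Gpnmb, which is on both lists, was the 1 of 16 fibroblast progenitor genes tested that was higher (median 0.22) and the 1 of 5 lipid-associated macrophage genes (median 0.69). Also higher were 1 of 9 glucocorticoid targets (Tsc22d3, median 0.24) and 1 of 7 immediate early and heat shock genes (Hspa5, median -0.33). Lower were 1 of 7 white adipocyte genes (Xkr4, median -0.16) and 1 of 11 genes of RNA quality and nuclear RNA (Gm42418, median -0.02), with 3 of those 11 lower at an unadjusted p under 0.05, as were 351 of 7787 over all genes. In fibroblast nuclei the immune markers summed to 36.7 and 33.6 CPM in TN and to 55.0 and 8.05 CPM in 3D, and adipocyte markers to 261 and 534 CPM in TN and 372 and 492 CPM in 3D, so neither separated the groups. The 6 smooth muscle and pericyte markers did, at 293 and 381 CPM in TN and 508 and 602 CPM in 3D, with 2 of them at 0 in all 4 mice, 3 detected in all 4, and Myh11, Acta2 and Rgs5 at 0 in both TN mice. Schwann cell markers summed to 34.4 and 67.3 CPM in TN and 94.2 and 103 CPM in 3D, and median UMIs per fibroblast nucleus were 806 and 868 in TN and 1108 and 1627 in 3D. The part of these in the fibroblast calls was not tested. The fibroblast calls numbered 0 without the pool in the fit, 15 by DESeq2, 1 without aged TN mouse 1, 5 without aged TN mouse 2, 40 without aged 3D mouse 1 (24 of the 41 among them) and 0 without aged 3D mouse 2. With nuclei thinned to 800 UMIs, 6 genes passed.

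In immune nuclei 0 of 3887 genes passed with edgeR, with 276 at an unadjusted p under 0.05 and 1 called by DESeq2. Of 12 lipid-associated macrophage genes 7 were tested, 4 were higher unadjusted (median log2 fold change 0.72, beside 0.04 over all genes), and 1 was higher in both cold mice, where 19.5% of all genes tested were. Over all genes 164 of 3887 were higher unadjusted. Cluster 15, with Gpnmb, Mmp12 and Lgals3 among its leading genes, held 7.21% and 6.59% of immune nuclei in TN and 25.0% and 7.55% in 3D, and its part in these values was not tested. Adipocyte markers in immune nuclei summed to 94.0 and 78.6 CPM in TN and 407 and 332 CPM in 3D, whose part was not tested. Endothelial nuclei were few, at 27 and 42 in aged TN and 37 and 102 in aged 3D mice, and 5 of 2078 genes passed (0.241%), 2 higher (0.0962%) and 3 lower (0.144%). None of the 5 passed without the pool in the fit, without aged TN mouse 2, without aged 3D mouse 2, with 1 aliquot per mouse or with thinned nuclei, and DESeq2 called 1 gene. Egfr, the receptor of epidermal growth factor, stood at 1025 and 613 CPM in aged TN mice and 125 and 172 CPM in aged 3D mice, from 22, 20, 4 and 18 UMIs (log2 fold change -2.22 ± 0.43, adjusted p = 0.0260). Car3, a carbonic anhydrase abundant in adipocytes, stood at 1072 and 674 CPM in TN against 125 and 28.7 CPM in 3D from 23, 22, 4 and 3 UMIs, and its log2 fold change reversed to 0.36 with 1 aliquot per mouse. Adipocyte markers in these nuclei summed to 786 and 1189 CPM in TN and 1119 and 915 CPM in 3D, with no separation of the groups, and fibroblast markers to 1180 and 1235 CPM in TN and 627 and 753 CPM in 3D, whose part in these calls was not tested. Emcn, endomucin of capillary endothelium, and Arhgef15, an endothelial exchange factor, were listed at 0 in both TN mice and at 5 and 76 UMIs and at 5 and 32 UMIs in 3D. With 5 UMIs in each TN aliquot that did not list them, the folds would be 1.13 and 0.591. Stab2, which is on the liver list, had UMIs in these nuclei in pool 2 alone, at 1625 CPM in TN (53 UMIs) and 124 CPM in 3D (13 UMIs).

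The shares of nuclei classes gave no call at 3 days. Adipocyte nuclei were 48.3% and 46.6% of nuclei in aged TN and 54.0% and 34.6% in aged 3D mice, so the difference was 5.79 points in pool 1 and -12.0 points in pool 2. Fibroblast nuclei were 39.9% and 34.0% in TN and 31.8% and 42.4% in 3D, again with opposite signs in the pools. Immune nuclei were 9.23% and 11.3% in TN against 8.89% and 11.5% in 3D. Endothelial nuclei were 2.25% and 5.24% in TN and 3.74% and 7.40% in 3D, higher by 1.49 and 2.16 points, with an edgeR log2 fold change of 0.60 ± 0.27 (unadjusted p = 0.0314, adjusted p = 0.220). Smooth muscle and pericyte nuclei were 0% and 0.748% in TN and 0.303% and 1.96% in 3D, skeletal muscle nuclei were 0.416%, 1.62%, 1.21% and 1.52%, and liver nuclei 0%, 0.374%, 0% and 0.580%. The 13 nuclei of aged TN mouse 2 in the skeletal muscle class held none of the 9 skeletal muscle markers at a listed count. Their class name rests on the cluster, which was named over all mice, and not on markers in that mouse. By edgeR 0 of 7 classes passed and 1 had an unadjusted p under 0.05. An exact two-sided permutation test within pools has 4 arrangements and cannot go below p = 0.5, the value it gave for endothelial nuclei.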

How the data were processed

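Single nuclei of frozen mouse iWAT were hashed, sorted and run in 2 droplet pools. As the labels and the methods describe, the authors mapped reads, introns included, to GRCm38 with Cell Ranger, removed ambient RNA with CellBender, assigned singlets by hashing, and deposited UMI counts per aliquot for genes with at least 6 counts. Groups came from the labels. Members and gene lists were chosen with earlier results of these data known.

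Nuclei with at least 300 genes were kept, with doublets called by Scrublet in scanpy 1.11.5 but retained (500 in all, 3.27%). Seurat 5.3.0 in R 4.3.3 (2000 variable genes, 18 dimensions, resolution 0.4) gave 17 clusters, which were put into classes by the markers. Counts were summed per mouse and class. The main test was edgeR 4.0.16 (TMM, quasi-likelihood) over all 12 mice with group and pool as terms, with Benjamini-Hochberg adjustment at 0.05. CPM of single genes are scaled by TMM over the genes tested. Summed CPM of marker and RNA quality genes are scaled to all UMIs of the mouse and class without TMM, so the 2 scales differ. Total UMIs were 1623279, 1123409, 2003329 and 3799660 in aged TN mice 1 and 2 and aged 3D mice 1 and 2, and UMIs are given beside many sparse genes, whose precision they limit. Alternatives included DESeq2 1.42.0, other filters, and leaving out each mouse. The number of mice limits all tests.

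The labels tie mice of 1 number to a shared pool. Deviations from the group means correlated within pools at r = 0.011 to 0.291 in adipocyte nuclei over 15 pairs of groups (0.06 for aged TN with aged 3D).

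The genes named were, per class, up to 15 per direction with the smallest adjusted p that passed and moved alike in both pools, listed genes that passed, the 2 to 4 highest members of described lists, and Arntl and Xkr4. The other clock genes were added after their values were seen, and 1 of them is not reported here.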

Additional observations from a re-analysis of the deposited data

Results flagged for a closer look

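In endothelial nuclei the 3D response of Egfr differed between ages, by -3.70 ± 0.62 on the log2 scale (adjusted p = 0.0153 by edgeR for the interaction over 2078 genes, 127 of them at an unadjusted p under 0.05). Egfr stood at 423 and 133 CPM in young TN mice and 726 and 702 CPM in young 3D mice (log2 fold change 1.48), and in aged mice it fell by 2.22 on the log2 scale, from 22, 20, 4 and 18 UMIs. Of 18 alternatives, 9 kept the call and 9 lost it, with differences from -6.50 to -2.52. It was lost without the replicate block, that is without the pool (adjusted p = 0.228), with the TN and 3D mice alone (0.0527), without aged 3D mouse 1 (0.0554), young TN mouse 2 (0.173) or young 3D mouse 2 (0.119), with strict nuclei (0.786), 500 genes per nucleus (0.0789), 5 UMIs for unlisted genes (0.987) and thinned nuclei (0.353). DESeq2 kept it (0.0204). Fibroblast markers in these nuclei summed to 1180 and 1235 CPM in aged TN mice and 627 and 753 CPM in aged 3D mice, and their part in the difference was not tested.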

How the results depend on the processing

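Alternatives that place 5 UMIs for unlisted genes, keep genes listed in all 8 aliquots, thin nuclei or keep clusters 2 and 8 were chosen after seeing the data, as were all those for the difference of Egfr between ages. For the 62 named genes that passed, 467 of 912 values under the alternatives kept direction and call, 436 kept the direction and lost the call, 1 reversed and 8 had no adjusted p. For 36 named genes that did not pass, 494 of 555 values stayed so, 29 passed, 31 reversed and 1 had no adjusted p.

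By class, the count of genes called moved as follows, and the cause was not tested. Over all nuclei the count of 1 became 227 by DESeq2, 0 with the compared mice only, 2 with 1 aliquot per mouse, 15 with 5 UMIs for unlisted genes, 2 with genes all 8 aliquots list, 3 with thinned nuclei, and 0 to 2 without 1 mouse. In adipocyte nuclei the count of 27 became 160 by DESeq2, 57 with no filter, 0 with the compared mice only, 8 with 1 aliquot per mouse, 17 with genes all 8 aliquots list, 16 in clusters 2 and 8, and 0 to 104 without 1 mouse. In fibroblast nuclei the count of 41 became 15 by DESeq2, 169 with no filter, 1 with 1 aliquot per mouse, 6 with thinned nuclei, and 0 to 40 without 1 mouse. In immune nuclei the count of 0 became 1 by DESeq2, 40 with no filter, 3 with 5 UMIs for unlisted genes, 1 with genes all 8 aliquots list, 1 with thinned nuclei, and 0 to 2 without 1 mouse. In endothelial nuclei the count of 5 became 1 by DESeq2, 35 with no filter, 0 with 1 aliquot per mouse, with 5 UMIs for unlisted genes and with thinned nuclei, 2 with the compared mice only, strict nuclei, 500 genes per nucleus and genes all 8 aliquots list, and 0 to 4 without 1 mouse. The difference from young mice had 36 (all nuclei) and 10 (adipocyte) genes by DESeq2, and up to 1 over all nuclei without 1 mouse. Where a mouse is left out, the lone mouse of its group is assumed to vary like the other groups.

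Without the replicate block, that is without the pool pairing, the counts were 19 in adipocyte nuclei, 0 in fibroblast nuclei and 0 in endothelial nuclei, the Arntl fold change in adipocyte nuclei was 3.81 (adjusted p = 0.0103), and the share of fibroblast nuclei reversed to 0.0069 on the log2 scale.

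The difference in thinned share, in points, was 4.38 for Arntl (3.15 at the lower depth, 18.4 unthinned), -3.26 for Dbp (-2.80 and -4.90), -9.82 for Xkr4 (-5.42 and -11.7) and -33.2 for Npr3 (-26.1 unthinned).

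Log2 fold changes that reversed were of genes and shares that had not passed, except Car3 in endothelial nuclei (0.36 with 1 aliquot per mouse). Prdm16 became 0.010 with no filter, 0.016 with strict nuclei, 0.011 with 500 genes per nucleus, 0.34 with 5 UMIs for unlisted genes, 0.020 with genes all 8 aliquots list and 0.024 with thinned nuclei. With 5 UMIs for unlisted genes Rora became 0.12, Cry2 0.25, Per2 0.14 and Prr16 0.089, and Cry2 became 0.27 with 1 aliquot per mouse and 0.075 with thinned nuclei. In clusters 2 and 8 Ppargc1b became -0.15, Ppargc1a -0.036, Acsl1 -0.053 and Prr16 0.41. With 500 genes per nucleus the share of fibroblast nuclei became 0.11 and that of immune nuclei 0.076. Without 1 mouse the ranges were -1.91 to 6.39 for Ciart, -1.49 to 0.69 for Bhlhe41, -0.13 to 0.038 for Cry2, -0.40 to 0.085 for Per2, -0.48 to 0.37 for Prdm16, -0.14 to 0.58 for Tshr, -0.63 to 1.17 for Cry1, -0.33 to 0.010 for Rora, -0.22 to 0.93 for Fabp4, -0.17 to 2.98 for Acaca, -0.043 to 2.13 for Acacb and -0.56 to 0.30 for Arntl in fibroblast nuclei. The shares ranged from -0.37 to 0.36 (fibroblast), -0.24 to 0.19 (immune) and -0.48 to 0.21 (adipocyte).

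DESeq2 gave no adjusted p for 9 values of named fibroblast genes. A gene with few UMIs, as in endothelial nuclei, has little precision at this depth.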

Other observations

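Some further genes of adipocyte nuclei, chosen after their values were seen, missed the threshold narrowly. Adra1a, an alpha-1 adrenergic receptor, stood at 144 and 71.0 CPM in aged TN mice and 273 and 399 CPM in aged 3D mice (log2 fold change 1.71 ± 0.35, adjusted p = 0.0863 by edgeR), and each cold mouse was above each TN mouse. Retn, the adipokine resistin, stood at 136 and 125 CPM in aged TN mice and 273 and 445 CPM in aged 3D mice (log2 fold change 1.43, adjusted p = 0.0670 by edgeR). Fgf14, a fibroblast growth factor homologous factor, stood at 217 and 349 CPM in aged TN mice and 112 and 90.1 CPM in aged 3D mice (log2 fold change -1.47, adjusted p = 0.0586 by edgeR), with each cold mouse under each TN mouse.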
